A study of Mus musculus with 2 samples.

Results

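Single cells of the mouse temporomandibular joint (TMJ), the hinge between the jaw and the skull, were searched for cartilage cells in a PBS and a CFA library, and 67 of 2667 kept PBS cells and 59 of 4014 kept CFA cells were chosen, 126 of 6681 in all. The members were chosen by measured values: a cell entered when Col2a1, Acan and Hapln1 together made up at least 0.1% of its transcripts and at least 10 unique molecular identifiers (UMIs, the count of captured transcripts), when it held no Ptprc UMI and when it held fewer than 2 UMIs of Pecam1 and Cdh5. The levels of Col2a1, Acan and Hapln1 therefore describe the choice and are not a finding. A kept cell had at least 500 genes, at most 10% mitochondrial UMIs and at most 1% hemoglobin UMIs.

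The animals were wild-type C57BL/6 mice (C57BL/6J in the methods), female per the study's methods and 8-10 weeks old per the labels. At 8 weeks each joint received 10 µL of either PBS or complete Freund's adjuvant (CFA, killed mycobacteria in oil, 5 mg/mL), which provokes a lasting local inflammation, and tissue was taken 3 weeks later. The tissue held the condyle and disc with the temporal bone and the muscle and ligament around the joint. It was digested by group, depleted of CD45+ cells with magnetic beads and captured in droplets, so each condition is 1 library. The methods give an n of 3 for the tissue, which is read here as animals pooled per library, and the spread between animals is not known. The labels and the methods differ in the digestion: 3 mg/ml collagenase and 4 mg/ml dispase for 30 min in the labels, against 1 mg/mL and 2 mg/mL for 25 min in the methods. Cell numbers below describe what was recovered from the digested tissue.

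Cartilage is a tissue of sparse cells that build a matrix of collagen II fibrils, trimmed by collagens IX and XI, around aggrecan, a proteoglycan whose sulfated chains hold water and which is tied to hyaluronan by link protein, the product of Hapln1. The mandibular condyle is covered by fibrocartilage: a fibrous surface layer rich in collagen I, a dividing layer beneath it, then flattened and mature chondrocytes, and at the bottom hypertrophic chondrocytes that make collagen X and mineral-binding proteins before bone replaces them. The disc is a fibrocartilage in which collagen I outweighs collagen II.

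The chosen PBS cells carried 1506144 UMIs and the chosen CFA cells 1472628, with medians of 18030 and 22007 UMIs and of 4687 and 4779 genes per cell. Levels below are in CPM, the usual counts-per-million scale, on which a gene's UMIs summed over the cells of a library are divided by all their UMIs, so cells with many UMIs weigh more. The libraries shared 10 barcodes, of which 2 were kept in both and 0 were chosen in either. The chosen cells were 2.51% of kept PBS cells (95% exact binomial interval 1.95 to 3.18) and 1.47% of kept CFA cells (1.12 to 1.89), a quotient of 0.585 with a counting interval of 0.414 to 0.827. Intervals throughout cover counting error only. Over barcodes without a Ptprc UMI the quotient was 0.786 (0.556 to 1.11), an interval that spans 1. The hemoglobin limit removed many PBS barcodes: without it the rule chose 122 PBS and 60 CFA cells. Sums and quotients below are of the 67 and 59 cells.

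The label of chondrocyte was borne out unevenly. Of the 13 chondrocyte markers that the rule did not use, 11 were at least 2-fold above the other kept cells, with a UMI in at least 25% of cells, in PBS members and 12 in CFA members. Sox9, the master regulator of the chondrocyte fate, which the rule did not use, was seen in 88.1% of members from PBS and 93.2% from CFA, and in 3.60% and 1.11% of endothelial cells, a type that should lack it, whose median depths were 6461 and 4987 UMIs. Thinned to 2000 UMIs per cell, Sox9 was seen in 46.3% and 43.1% of members and in 1.08% and 0.347% of endothelial cells. Fmod, which codes fibromodulin, a regulator of collagen fibrils, held a UMI in 92.5% and 98.3% of members and in 4.40% and 1.44% of endothelial cells. Col2a1 itself, although part of the rule, was seen in only 53.7% of members from PBS and 55.9% from CFA (5.60% and 6.77% of endothelial cells), and 26 and 29 members held 10 or more. After thinning every cell to 2000 UMIs, Col2a1 remained visible in 41.8% and 46.6% of members and in 1.76% and 2.89% of endothelial cells. The other members entered through Acan and Hapln1. No marker here tells condyle from disc, so the position of a cell in the joint is not given.

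Markers of other cell types differed in level. The rule and the gates read Ptprc, Pecam1, Cdh5 and the hemoglobins, so those are left out of the next values. None of the other 5 leukocyte, 4 endothelial and 3 erythroid markers, and none of 6 mural and 8 neutrophil markers, met the same 2-fold and 25% measure in either library. The 4 endothelial markers summed to 0.741% and 0.294% of the level in the other kept cells of PBS and CFA, the 5 leukocyte markers to 1.94% and 1.05% and the 3 erythroid markers to 2.54% and 5.22%. In CPM the leukocyte sum was higher in CFA members, at 13.9 in PBS and 144 in CFA, against 717 and 13760 in the other kept cells. Lyz2 led it at 10.6 and 76.1 CPM, with a UMI in 17.9% and 78.0% of members. The neutrophil markers summed to 50.5 CPM in PBS and 97.1 CPM in CFA members against 8167 and 18144 CPM in the other kept cells, 0.618% and 0.535% of that level. Others were not near 0. The 6 tendon or ligament markers summed to 76.7% and 187% of the level in the other kept cells, and Scx and Fibin, of which the latter is also in the cartilage matrix list, were at least 2-fold above them, while Tnmd, the defining tendon marker, was at 1.99 and 0 CPM. Sublining fibroblast markers summed to 60.0% and 67.8%, mural markers to 42.8% and 7.94%, Schwann cell markers to 36.7% and 14.0% and lining fibroblast markers to 30.8% and 4.86%. The part of these in the results was not tested. Osteoblast markers were not low: 6 of 8 were at least 2-fold higher in the members of either library, namely Bglap, Bglap2, Ibsp, Sp7, Col1a1 and Alpl, with sums of 32910 and 64150 CPM. In 3 members, 2 PBS and 1 CFA, Acan and Hapln1 summed to at most 1 UMI and Fmod was at 0. The CFA one held 5969 Bglap UMIs beside 298 of Col2a1 and the PBS ones held 4660 beside 126 and 64 beside 17. These cells entered through Col2a1 alone, and a choice by Acan and Hapln1 alone left them out and gave 81 PBS and 79 CFA cells.

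**Figure D1:**
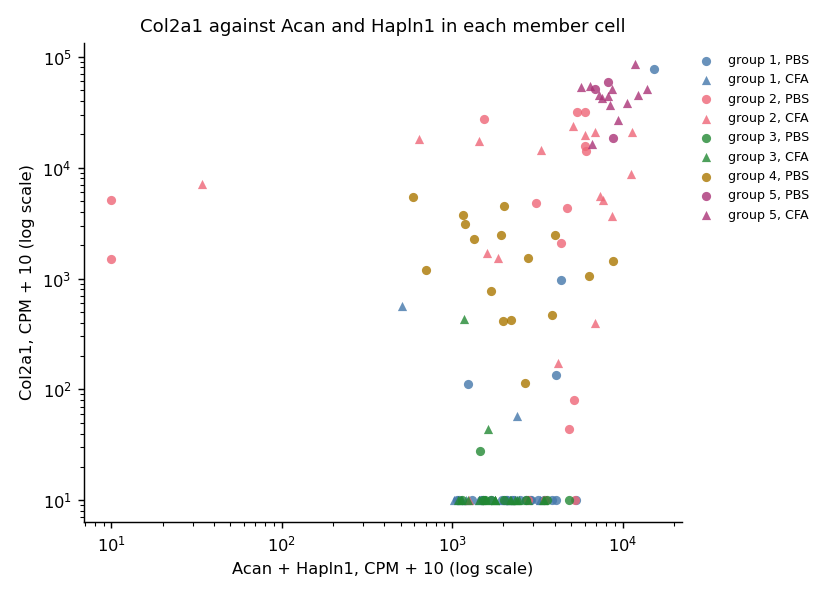
Each point is 1 chosen cell, with Acan plus Hapln1 on the horizontal axis and Col2a1 on the vertical axis, both as CPM + 10 on log scales; colours mark the 5 groups and shapes the library (circles PBS, triangles CFA). Members of group 5 sit at the upper right with a Col2a1 UMI in 16 of 16 cells, most members of groups 1 and 3 lie on the floor of the vertical axis, and 3 members of group 2 lie at the left with next to no Acan and Hapln1.

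The cells just inside the rule were close to those outside it. The rule genes made up a median of 0.361% of a PBS member's UMIs and 0.337% of a CFA member's, from 0.106% to 9.34% and from 0.102% to 9.69%. Below 0.2% lay 15 PBS and 18 CFA members. Outside the rule, 20 PBS and 24 CFA cells had at least 5 UMIs and at least 0.05% of these genes, and the highest of them reached 0.223% and 0.151% on fewer than 10 UMIs.

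Outside the rule genes, a cartilage matrix program set the members apart in summed level, though not in every cell. Of 18099 genes measured, 401 (2.22%) were at least 2-fold above the other kept cells in both libraries with a UMI in at least 25% of members. The rule chose these cells by cartilage genes, so this list is a description. Snorc, a small transmembrane proteoglycan of chondrocytes, led it at 2155 CPM in PBS and 3370 CPM in CFA members against 22.7 and 22.6 CPM in the other kept cells. The collagen IX chains followed: Col9a1 was at 699 and 1241 CPM against 11.4 and 8.40, Col9a2 at 571 and 1279 against 11.1 and 17.6, and Col9a3 at 628 and 1065 against 12.1 and 9.99. Snorc, Col9a1, Col9a2 and Col9a3 had a UMI in 55.2%, 56.7%, 47.8% and 55.2% of PBS members. In CFA members the shares were 54.2%, 47.5%, 55.9% and 52.5%. Comp, the pentameric cartilage oligomeric matrix protein, was at 3620 and 4876 CPM against 151 and 86.9. Ibsp, bone sialoprotein, which binds mineral and is made by osteoblasts and hypertrophic chondrocytes, was at 6820 and 28929 CPM against 178 and 329. Chad, the collagen-binding chondroadherin, was at 957 and 1091 CPM against 42.5 and 9.52. Pth1r, the receptor for the hormone PTHrP that holds back hypertrophy, was at 734 and 1398 CPM against 36.3 and 26.8. Also among the 20 genes furthest above the other kept cells were Panx3, Scrg1, Adamts18, C1qtnf3, Col27a1, Col11a2, Col11a1, Ndufa4l2, Tnn, Col12a1 and Sema3d. Col10a1 ranked among these 20 by its ratio but is not one of the 401 genes, since it had a UMI in only 11.9% of PBS members.

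Clustering the 126 cells on all variable genes gave 5 groups, numbered by size, and clustering without the 3 rule genes put every cell in the same 5 groups. Since the genes that define a group formed it, their levels are given as description. A group mostly of 1 library can be that library rather than a type of cell, and group sizes are not compared between libraries for the same reason.

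Group 5 was hypertrophic chondrocyte-like and held 3 PBS and 13 CFA cells. Its members had 5 of 6 hypertrophic markers and all 16 chondrocyte markers. Col10a1, at chr10:34389981-34397085 of GRCm38, which codes the collagen of hypertrophic cartilage, stood at 3340 CPM with a UMI in 16 of 16 cells, against 53.9 CPM in the other members. Ibsp stood at 61853 CPM and Col2a1 at 44998 CPM, so more than 10% of the transcripts of these cells came from those 2 genes. Ihh, the hedgehog ligand of prehypertrophic chondrocytes, was at 487 CPM, Matn3 at 688, Snorc at 9062, Comp at 9789 and Pth1r at 2548 CPM. Mmp13, the collagenase of terminal hypertrophy, had 0 UMIs here in either library. The median cell held 43480 UMIs, the highest of the 5 groups.

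Group 2 combined cartilage and bone genes and held 15 PBS and 17 CFA cells. Col2a1 stood at 11103 CPM with a UMI in 88% of cells, Col1a1 at 35735, Ibsp at 13845 and Spp1, osteopontin, at 5147 CPM. Its leading genes were Bglap, Bglap2, Spp1, Pcdh7 and Ifitm5. Bglap, osteocalcin, was at 11733 CPM, but 96.0% of all Bglap UMIs of PBS members and 93.7% of those of CFA members were in 1 cell each, the 2 cells named above. Ptch1, the hedgehog receptor that hedgehog signalling itself raises, was at 418 CPM here against 120 CPM in the other members. All 6 members among the 5% highest doublet scores of their library were in this group, all from CFA, and whether cells of this group are pairs of cells was not tested. Across all members, 37 of the 55 cells with at least 10 Col2a1 UMIs also held at least 10 Ibsp UMIs, 43 held at least 10 of Col1a1 and 16 at least 10 of Bglap.

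Groups 1 and 3 were cells with Acan, Hapln1, Fmod and Sox9 but little collagen II. Both had 6 of 16 chondrocyte markers, which were Acan, Hapln1, Fmod, Col11a1, Comp and Sox9. Group 1 held 24 PBS and 10 CFA cells, with Col2a1 UMIs in 18% of cells, and 1 PBS cell at 78021 CPM carried most of them. Its collagen was fibrous: Col1a1 stood at 26688 CPM, Col3a1 at 11372, and Postn, periostin, at 7923 CPM. Its leading genes were Stmn1, Ptn, Top2a, Prc1 and Cenpa, 4 of which serve mitosis, while Ptn codes the growth factor pleiotrophin. Group 3 held 9 PBS and 19 CFA cells, with Col2a1 at 26 CPM and Fmod at 4667 CPM. Fn1, fibronectin, was at 9572 CPM, Aspn, asporin, at 2103 and Tnfaip6, a hyaluronan-binding protein induced by inflammation, at 992 CPM. It was led by Kcnq5, Ltbp2, Cilp2, Sod3 and Nckap5. Scx, a tendon transcription factor, was at 102 CPM in group 1 and 126 CPM in group 3 against 16 or less in the others.

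Group 4 held 16 PBS and 0 CFA cells, and the exact upper limit for 0 of 59 CFA members is 6.06%. All 16 chondrocyte markers were detected, yet Col1a1 was at 417 CPM, far under the 16597 CPM or more of the other groups, and Postn and Pth1r were at 0. Col2a1 was at 1677 CPM with a UMI in every cell. Its leading genes were Cytl1, a secreted chondrocyte protein, at 13477 CPM, Col8a1 at 7233, Apoe at 3586, Prg4, the joint lubricant lubricin, at 2733 and Eln, elastin, at 2686 CPM. Gsn was at 14765, Gpc6 at 5575, Wif1, a secreted Wnt inhibitor, at 4941 and Chad at 3126 CPM. The median cell had 11112 UMIs, the fewest of the groups. These cells come from the PBS library alone, in which the condition, the animals and the dissection cannot be told apart.

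**Figure D2:**
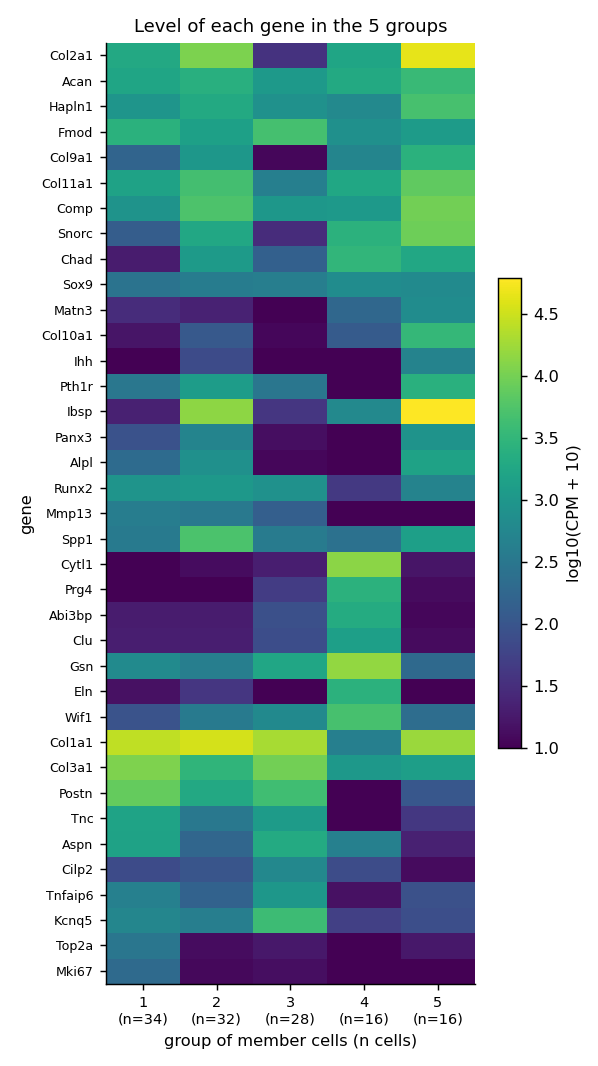
Rows are genes and columns the 5 groups of chosen cells with their number; colour gives log10(CPM + 10). Col2a1, Ibsp and Col10a1 are brightest in group 5, Cytl1, Prg4 and Gsn in group 4, and Postn and Col3a1 in group 1, while group 3 lacks Col2a1 and Col9a1.

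The libraries were then compared over all members. A gene was measured with at least 20 UMIs over both libraries and a UMI in at least 10 members of the library where it was higher, and it counted as past 2-fold when the ratio of the CPM values with 10 CPM added to each reached 2 and the counting interval of the plain quotient left out 1. Of 9054 genes measured, 122 (1.35%) were at least 2-fold higher in CFA and 218 (2.41%) at least 2-fold lower. With 1 library per condition these are sizes of difference between 2 libraries and no test between conditions. The median quotient over all genes was 0.901, -0.11 on the log2 scale, and quotients are read against it. Of the genes past 2-fold, 35.9% were higher in CFA, but 46.7% after scaling to the median ratio of genes and 54.7% without group 4, an alternative chosen after the values were seen. A second alternative chosen then takes the mean of the CPM values of groups 1, 2 and 3, which hold at least 9 members of each library, and is called the mean over shared groups below.

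Genes of the interferon response and of antigen presentation by class I molecules were higher in CFA members. Interferons bind receptors whose signal switches on genes for antiviral proteins, for guanosine triphosphatases that attack intracellular microbes, and for the proteasome subunits, transporters and class I chains that display peptides to T cells. Of the 21 measured genes of the interferon list, 15 were at least 2-fold higher in CFA and 0 lower, with a median log2 ratio of 1.16 against -0.11 over all genes. Of 11 measured genes of major histocompatibility complex classes I and II, 5 were higher and 0 lower, with a median of 0.84. These counts stand beside 1.35% and 2.41% of all genes. The 5 MHC genes were B2m, H2-K1, H2-D1, H2-Q7 and the class II gene Cd74. In the mean over shared groups these counts were 16 of 18 and 7 of 9. Without the hemoglobin limit the interferon count was 8 of 21, and with 50 CPM in place of 10 added to each level it was 2 of 21. The 1.35% and 2.41% are shares of the main comparison, and those over all genes in these alternatives are not given. Within groups 1, 2 and 3 alone, 4.15%, 3.28% and 5.84% of the genes measured were higher in CFA. The main interferon count depends on which genes were measured: 12 of the 15 had a UMI in fewer than 10 PBS members and were measured through CFA alone. Of the 24 genes of the list not measured, 19 had more CPM in CFA, 3 had more in PBS and 2 had 0 UMIs. Of the 3, Cxcl10, an interferon-induced chemokine, had 18 UMIs in 4 PBS members and 0 in CFA, at least 5.87-fold lower by the floor of 3 counts per library, and Gbp5 had 6 and 0 UMIs.

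For 4 of these genes the stretch upstream of the start site is shown, because each carries the letters of an interferon-stimulated response element, GAAANNGAAA on one strand or the other, which interferon-activated transcription factors are known to bind. The windows are the 160 bases before the RefSeq start on build GRCm38.p6, written 5′ to 3′ on the strand of the gene, with the motif in capitals. Copies in the Bst2 and Isg15 windows overlap, 2 in the former and 3 in the latter. The Bst2 window is chr8:71537473-71537632 on the minus strand, that of B2m chr2:122147527-122147686 on the plus strand, that of Igtp chr11:58199396-58199555 on the plus strand and that of Isg15 chr4:156200819-156200978 on the minus strand.
Bst2: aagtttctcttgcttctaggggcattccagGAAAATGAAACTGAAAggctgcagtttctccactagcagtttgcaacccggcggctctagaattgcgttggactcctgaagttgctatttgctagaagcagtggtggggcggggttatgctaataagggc
B2m: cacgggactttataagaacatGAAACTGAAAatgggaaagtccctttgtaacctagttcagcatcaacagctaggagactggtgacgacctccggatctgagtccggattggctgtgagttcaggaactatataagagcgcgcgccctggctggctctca
Igtp: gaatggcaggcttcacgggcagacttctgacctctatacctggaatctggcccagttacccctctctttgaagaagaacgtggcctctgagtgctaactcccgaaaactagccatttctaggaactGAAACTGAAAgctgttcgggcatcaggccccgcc
Isg15: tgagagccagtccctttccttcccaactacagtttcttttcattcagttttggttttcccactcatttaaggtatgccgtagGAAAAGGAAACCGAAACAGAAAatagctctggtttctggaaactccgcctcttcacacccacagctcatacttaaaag
In windows from 250 bases before to 50 bases after the start, the motif was present for 7 of the 17 measured interferon genes with a window, and for 6 of the 11 with a window that were higher in CFA. It was present for 3 of 9 measured MHC genes and for 3 of 15 hypertrophic and mineralizing genes, namely Mmp13, Spp1 and Vegfa. It was present for 0 of 16 cartilage matrix genes and 0 of 5 superficial genes. The share over 7332 measured genes with a window was 3.46%. Gbp7, Irgm2, Socs1 and Stat2 held the motif too, and H2-K1 and H2-D1 did not. A match of letters says nothing of binding in these cells.

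Bst2, tetherin, which tethers virus particles to the cell surface and is coded at chr8:71534255-71537456, was at 11.3 CPM in PBS and 173 CPM in CFA members, a quotient of 15.3 (9.36 to 26.7), with a UMI in 11 of 67 and 46 of 59 cells. B2m, the light chain of every class I molecule, was at 109 and 603 CPM, a quotient of 5.54 (4.68 to 6.58). The heavy chain gene H2-K1 was at 85.7 and 477 CPM, a quotient of 5.57 (4.61 to 6.77), and H2-D1 was at 123 and 530 CPM, a quotient of 4.32 (3.67 to 5.10). Detection moved less than level because most members held these transcripts in either library: H2-D1 had a UMI in 54 of 67 and 57 of 59. H2-Q7 went from 2 UMIs to 95, a quotient of 48.6 (13.1 to 407), and shares reads with near-identical class I genes, so its own part in them is uncertain.

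The activators and effectors were low in absolute level. Nlrc5, the activator of class I genes, had 3 and 47 UMIs, with a counting interval of 5.16 to 80.5 for the quotient. Irgm2 had 2 and 49 UMIs and Igtp 3 and 44, both immunity-related guanosine triphosphatases. The peptide transporter genes Tap1 and Tap2 had 4 and 27 and 2 and 20 UMIs, and the immunoproteasome genes Psmb8 and Psmb9 had 1 and 27 and 2 and 19. Isg15 had 4 and 31 UMIs and Ifi27l2a 3 and 83. Irf1, Irf9, Socs1, Tapbp, Xaf1 and Psmb10 were measured and not past 2-fold. Irf1, itself a transcription factor of the response, was at 75.7 and 91.0 CPM, Irf9 at 8.63 and 23.1 and Xaf1 at 3.98 and 16.3 CPM, and Socs1, Tapbp and Psmb10 had quotients from 1.51 to 1.79. Not every strongly interferon-linked gene was seen: Cxcl9 had 0 UMIs in either library, and Gbp2 reached 1.99 and 8.83 CPM in members against 71.0 and 270 CPM in the other kept cells.

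B2m and Bst2 were higher in CFA within each of the 4 groups that both libraries hold. B2m in groups 1, 2 and 3 was at 121, 124 and 140 CPM in PBS and at 1407, 586 and 597 CPM in CFA members, and in group 5, with 3 PBS cells, at 36.0 and 299 CPM. H2-K1 was at 76.4, 69.4 and 58.7 CPM in PBS and at 1095, 458 and 477 CPM in CFA in groups 1, 2 and 3, while in group 5 it was at 222 and 244 CPM, a quotient of 1.10 (0.754 to 1.64). Bst2 was at 11.2, 19.5 and 9.03 CPM in PBS and at 286, 236 and 202 CPM in CFA in the same 3 groups, and in group 5 at 6.00 CPM, from 1 cell, and 42.1 CPM. The interferon list summed to 243, 191 and 190 CPM in PBS and to 1848, 891 and 1224 CPM in CFA. In group 1 the median cell went from 264 to 1424 CPM, and the ranges of 0 to 699 and 490 to 3396 CPM overlapped.

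**Figure D3:**
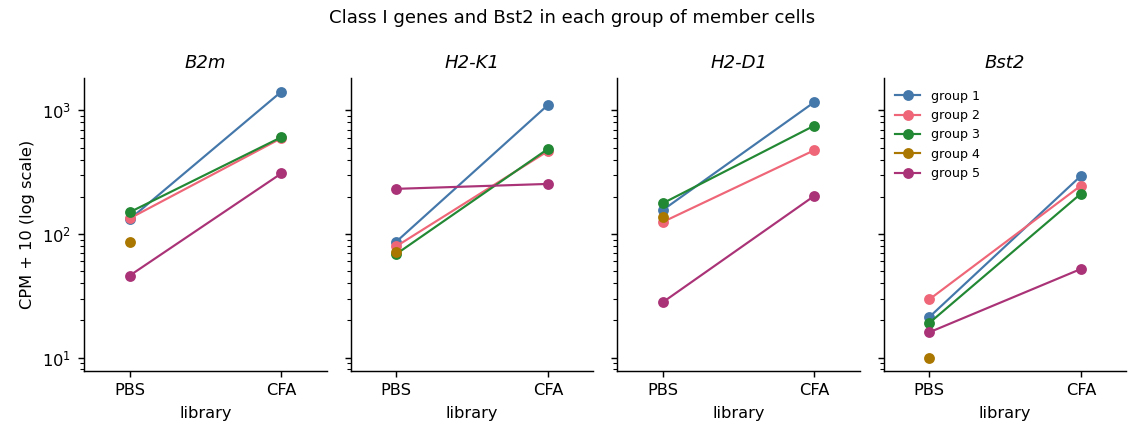
Each panel shows 1 gene, with the library on the horizontal axis and the level as CPM + 10 on a log scale; each line joins the PBS and CFA levels of 1 group, and group 4 has only a PBS point. Lines of groups 1, 2 and 3 slope up from PBS to CFA in every panel, and that of group 5 is nearly flat for H2-K1, at 222 and 244 CPM.

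Members had less of these transcripts than lining, tendon and endothelial cells. The interferon list summed to 270 and 945 CPM in PBS and CFA members, a quotient of 3.50, to 1309 and 7288 CPM in 110 and 90 Prg4-rich lining fibroblasts, to 1146 and 6427 CPM in 112 and 62 Tnmd and Thbs4 tendon cells and to 6037 and 10756 CPM in 750 and 901 endothelial cells. In 28 and 13 osteoblasts the sum went the other way, from 2750 to 939 CPM. Classes I and II summed to 424 and 1855 CPM in members, against 705 and 9292 CPM in lining fibroblasts and 485 and 8025 CPM in tendon cells. Free RNA from other cells enters droplets, and its part in these genes was not tested. B2m and H2-K1 in CFA members were at 37.2% and 26.3% of their level in the other kept cells. On the same scale, without the genes that the rule and gates read, the endothelial, neutrophil and leukocyte markers of CFA members summed to 0.294%, 0.535% and 1.05%. The mural and Schwann cell markers summed to 7.94% and 14.0%, the sublining and the tendon or ligament markers to 67.8% and 187%, and the osteoblast markers to 2452%. The last 3 sums were led by Dcn, Fibin and Ibsp, at 1764, 340 and 28929 CPM in CFA members against 1535, 34.3 and 329 CPM in the other kept cells. Sums led by genes that are higher in the members cannot gauge RNA from other cells. Cd74, the class II chaperone and also 1 of the leukocyte markers, had 0 UMIs in PBS and 24 in CFA members, and its 16.3 CPM were 0.814% of its level in the other CFA cells. H2-Aa, a class II chain, was at 0.754% of it.

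**Figure D4:**
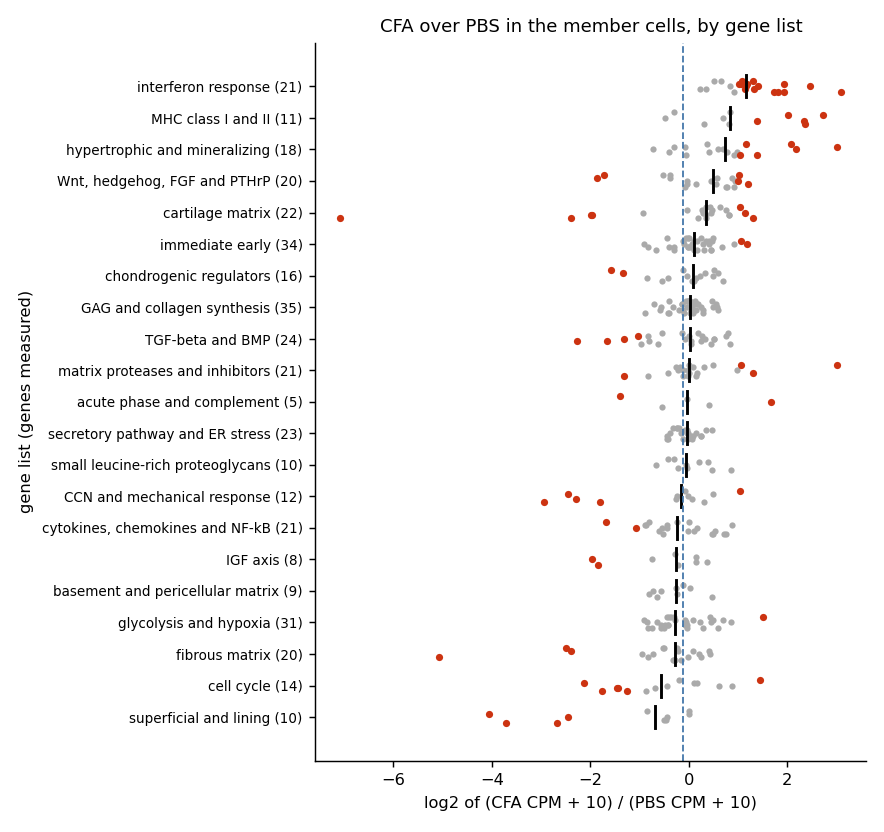
Each row is a gene list with its number of measured genes, each point 1 gene at its log2 ratio of CFA over PBS members with 10 CPM added to both; red points are past 2-fold with a counting interval that leaves out 1, black bars are list medians and the dashed line is the median of all 9054 genes, -0.11. The interferon list has the highest median, 1.16, and the superficial list the lowest, -0.68.

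Among hypertrophic and mineralizing genes, 6 of 18 measured were at least 2-fold higher in CFA members and 0 lower, with a median log2 ratio of 0.73. Col10a1 was at 271 CPM in PBS and 1265 CPM in CFA, a quotient of 4.67 (4.19 to 5.21). Of its UMIs, 50.7% and 31.6% were in 1 cell, and 4 PBS and 9 CFA members held 10 or more. Ibsp was at 6820 and 28929 CPM, a quotient of 4.24 (4.15 to 4.34), Ihh at 65.1 and 187 CPM, Alpl, the phosphatase that frees phosphate for mineral, at 408 and 854 CPM, and the citrate transporter gene Slc13a5 at 58.4 and 143 CPM. These values carry the mix of groups. Group 5 held 3 PBS and 13 CFA cells, and within it Col10a1 was at 2278 and 3713 CPM, a quotient of 1.63 (1.46 to 1.83), and Ibsp at 38155 and 70170 CPM, a quotient of 1.84 (1.79 to 1.89). Single cells of this group overlapped between the libraries. The median Col10a1 cell was at 1622 CPM in PBS (960 to 4797) and 1841 CPM in CFA (20.5 to 15970). Ibsp ranged from 3648 to 87620 CPM in PBS cells and from 1130 to 161400 CPM in CFA cells. In the mean over shared groups the list had 3 of 16 genes higher and a median of 0.26, and among members with at least 10 Col2a1 UMIs, 3 genes were higher and 2 lower of 17. The shares over all genes in these alternatives are not given, and 1.35% and 2.41% are those of the main comparison.

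Runx2, a transcription factor of hypertrophy and bone, was not past 2-fold over all members at 521 and 1031 CPM, with a log2 ratio of 1.15 in the mean over shared groups. Sp7 at 118 and 113 CPM, Enpp1 at 143 and 135 and Spp1 at 2366 and 1778 CPM were not higher. Mgp, the matrix Gla protein that holds back calcification, was at 3101 and 1869 CPM, a quotient of 0.603 (0.575 to 0.632).

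Mmp13 differed from the other hypertrophic genes in place. It was at 39.8 CPM in PBS and 391 CPM in CFA members, a quotient of 9.82 (7.52 to 13.0), with a UMI in 13 of 67 and 24 of 59 cells. It was not in group 5 but in groups 1, 2 and 3, with 78.6, 8.67 and 94.8 CPM in PBS and 1126, 647 and 153 CPM in CFA. Single cells weighed heavily, since 45.0% of its PBS and 42.9% of its CFA UMIs were in 1 cell each, and in group 2 only 2 of 15 PBS and 5 of 17 CFA cells had a UMI. Among other matrix proteases and inhibitors, Slpi at 7.30 and 32.6 CPM was higher and Timp4 lower, with 25 UMIs in PBS and 1 in CFA. Adamts5, an aggrecanase, was at 55.1 and 118 CPM, a quotient of 2.13 (1.63 to 2.80) that fell short of 2 with 10 CPM added. Mmp2, Mmp14, Ctsk, Ctsb, Ctsd and Timp1 had quotients from 0.924 to 1.11.

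The cartilage matrix list moved both ways. Of 22 measured genes, 3 were higher in CFA members, namely Col9a2, Matn3 and Matn4, and 4 lower, namely Cytl1, Ucma, Mia and Cilp2, with a median log2 ratio of 0.35. Col9a2 was at 571 and 1279 CPM, a quotient of 2.24 (2.07 to 2.43), but its log2 ratio in the mean over shared groups was 0.09. Matn3, a matrilin, was at 108 and 232 CPM. In the mean over shared groups it was lower in CFA at a log2 ratio of -1.12, but at only 16.2 and 2.09 CPM, near the 10 CPM added. Col11a1 at 3216 and 3877 CPM, Comp at 3620 and 4876, Chad at 957 and 1091 and Col27a1 at 793 and 1013 CPM were not past 2-fold, with quotients from 1.14 to 1.35. Cilp2, a cartilage intermediate layer protein, was at 247 and 55.7 CPM, a quotient of 0.225 (0.175 to 0.287), and was lower in each of groups 1, 2 and 3, with 87.6, 180 and 1065 CPM in PBS and 10.4, 2.09 and 236 CPM in CFA.

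The genes that attach sulfated sugar chains and fold collagen differed little. Of 35 measured genes of glycosaminoglycan and collagen synthesis, 0 were past 2-fold in either direction, with a median log2 ratio of 0.03. Of 10 small leucine-rich proteoglycans 0 were past 2-fold over all members, and Fmod was at 2510 and 1878 CPM, Bgn at 3281 and 3203 and Dcn at 1518 and 1764 CPM. Lum, lumican, was at 453 and 833 CPM over all members, a quotient of 1.84 (1.67 to 2.02), and at 672 and 3146 CPM in group 1 and 113 and 664 CPM in group 3, against 558 and 347 CPM in group 5. Of 16 chondrogenic regulators, 0 were higher and 2 lower. Sox9 was at 404 and 474 CPM, Sox6 at 931 and 1034 and Trps1 at 2712 and 3402 CPM, while Nfia was at 247 and 91.0 CPM and Nfib at 307 and 95.8 CPM.

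The superficial list was lower in CFA members, and the difference moved with group 4. Of 10 measured genes, 0 were higher and 4 lower, with a median log2 ratio of -0.68. Prg4 was at 384 CPM in PBS and 13.6 CPM in CFA, a quotient of 0.0353 (0.0214 to 0.0551), Abi3bp at 318 and 14.9, Clu at 204 and 29.2, and Gsn, gelsolin, at 2873 and 443 CPM. Without group 4 the median was -0.07 and the log2 ratios of Prg4, Apoe and Clu turned to 1.03, 0.22 and 0.97. Those of Prg4 and Clu rest on low levels: in the mean over shared groups Prg4 was at 3.01 and 18.4 CPM and Clu at 14.2 and 42.7 CPM. All CFA members together held 20 Prg4 UMIs, 60.0% of them in 1 cell. Gsn remained lower in the mean over shared groups, at a log2 ratio of -1.16. Cytl1, at chr5:37735519-37739820 of GRCm38, had the lowest log2 ratio of the genes measured, at 1894 and 4.07 CPM, a quotient of 0.00215 (7.89e-04 to 0.00469), and 42.1% of its PBS UMIs were in 1 cell. Counted over every deposited barcode, which no choice of cells touches, 27 of 7671 PBS and 9 of 5709 CFA barcodes held at least 10 Cytl1 UMIs, and of these 14 and 0 were members. Col8a1, Eln, Trf, Gpc6, Corin and Fxyd3 were also among the 15 lowest, at 1143, 395, 143, 910, 122 and 325 CPM in PBS and at 8.15, 2.04, 0.679, 68.6, 1.36 and 19.0 CPM in CFA.

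Acta2, smooth muscle actin, was at 631 and 73.3 CPM, and Tagln, Myl9 and Tpm2, which serve the same contractile fibres, were lower as well, at 122 and 14.3, 71.7 and 6.79, and 191 and 47.5 CPM. Of the PBS UMIs of Tagln, Myl9 and Tpm2, 58.7%, 45.4% and 34.5% were in 1 cell each, and of those of Acta2 29.0%. In group 3 Acta2 went the other way, with a log2 ratio of 1.80. The 6 mural markers summed to 694 CPM in PBS and 75.4 CPM in CFA members, most of it Acta2 itself. Of the others, Myh11 was at 56.4 and 0.679 CPM and Notch3 at 3.98 and 0 CPM. Rgs5 was at 0 and 0.679, Des at 1.99 and 0.679 and Kcnj8 at 0.664 and 0 CPM. The part of RNA from mural cells in the difference was not tested.

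Of 20 measured Wnt, hedgehog, FGF and PTHrP genes, 3 were higher and 2 lower in CFA, with a median log2 ratio of 0.50. Beside them stand 1.35% higher and 2.41% lower over all genes. Ptch1 was at 138 and 292 CPM, a quotient of 2.11 (1.79 to 2.51), with log2 ratios of 1.46, 0.91 and 1.77 in groups 1, 2 and 3, whereas Gli1, another hedgehog target, was at 20.6 and 13.6 CPM. Dkk1, a Wnt inhibitor, was at 15.9 and 42.1 CPM, with a log2 ratio of -0.08 in the mean over shared groups, and Ccn4, a Wnt-induced matrix protein, at 82.3 and 202 CPM. Wif1 was at 981 and 292 CPM, with a log2 ratio of -0.47 in the mean over shared groups, and Notum, which cuts the lipid from Wnt, had 51 and 3 UMIs. Of 24 TGF-beta and BMP genes, 4 were lower, namely Tgfbr3, Ltbp1, Bmp5 and Id1, and 0 higher, though Tgfbr3 had a log2 ratio of 0.11 in the mean over shared groups. Igf1 was at 102 and 21.1 CPM and Igf2 had 48 and 1 UMIs. Ccn2, connective tissue growth factor, was at 286 and 597 CPM, a quotient of 2.09 (1.86 to 2.35).

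Inflammatory mediators other than interferon genes were not higher as a group. Of 21 measured cytokines, chemokines and NF-kB genes, 0 were higher and 2 lower, Cxcl14 and Icam1, with a median log2 ratio of -0.23. Of 5 measured acute phase and complement genes, 1 was higher and 1 lower, the latter Lbp, with a log2 ratio of 0.21 in the mean over shared groups. Socs3, the feedback inhibitor of gp130 cytokines, was at 88.3 and 215 CPM and Zfp36, which destabilizes cytokine transcripts, at 121 and 265 CPM, the 2 of 34 immediate early genes past 2-fold. Of 31 glycolysis and hypoxia genes 1 was higher, Ddit4, at 31.9 and 109 CPM, and 23 genes of the secretory pathway and 9 of the basement and pericellular matrix had 0 past 2-fold. Of 20 fibrous matrix genes, Eln, Fbn1 and Fbn2 were lower and 0 higher.

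Mki67 or Top2a, which serve mitosis, had a UMI in 20 of 67 cells from PBS against 7 of 59 from CFA. Of these, 8 and 4 held a single UMI and 12 and 3 held 2 or more. In group 1, cells with at least 1 UMI were 14 of 24 PBS and 1 of 10 CFA cells. Of 14 measured cell cycle genes 5 were lower in CFA, namely Mki67, Top2a, Ccnb2, Birc5 and Stmn1, and Cdkn1c, an inhibitor of the cycle, was higher at 216 and 610 CPM. Its log2 ratio in the mean over shared groups was -0.44. Mki67 was at 75.7 and 9.51 CPM over all members, a quotient of 0.126 (0.0666 to 0.220), and within group 1 at 249 and 67.5 CPM, a quotient of 0.271 (0.140 to 0.482). Of its UMIs over all members, 36.0% in PBS and 92.9% in CFA were in 1 cell each, and of those of Top2a 38.7% and 83.0%. As group 1 was formed in part by these genes, its share of cells with a UMI and its levels are a description.

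Several other genes among the 15 highest in CFA had their highest level in group 5. F13a1 was at 42.5 and 247 CPM, Fgf1 at 27.2 and 154, Stc2, a secreted glycoprotein, at 30.5 and 122 and Nt5e, which makes adenosine at the cell surface, at 276 and 818 CPM. Within group 5 these were at 186 and 680, 150 and 431, 120 and 337, and 647 and 1677 CPM. In the mean over shared groups F13a1 had a log2 ratio of 1.93, Fgf1 of 0.39, Stc2 of 0.01 and Nt5e of 0.73. Socs2, a growth hormone feedback inhibitor, at 32.5 and 134 CPM, Lgals3bp at 21.9 and 108 CPM and 4931406P16Rik at 35.2 and 124 CPM were spread over more cells.

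Within groups 1, 2 and 3, which cannot carry the mix of groups 4 and 5, the differences were counted separately. In group 1, 206 of 4969 genes (4.15%) were at least 2-fold higher in CFA and 337 (6.78%) lower. In group 2, 188 of 5733 (3.28%) were higher and 207 (3.61%) lower, and in group 3, 253 of 4334 (5.84%) were higher and 125 (2.88%) lower. Of 3834 genes measured in all 3, 15 were higher in every group and 8 lower. The 15 were B2m, H2-K1, H2-D1, Bst2, Lgals3bp and Ly6e, of which the first 4 belong to the lists above, Ccn2 and Ccn4, Fkbp5, Tsc22d3 and Zbtb16, and Ccnd3, Itgbl1, Pde4d and Rin2. Fkbp5, Tsc22d3 and Zbtb16 are known to be raised by glucocorticoids. Fkbp5 was at 27.0, 6.50 and 22.6 CPM in PBS and at 114, 54.4 and 217 CPM in CFA in groups 1, 2 and 3. Tsc22d3 was at 80.9, 91.0 and 117 CPM in PBS and at 379, 193 and 569 CPM in CFA. Zbtb16 was at 42.7, 30.3 and 58.7 CPM in PBS and at 166, 71.1 and 254 CPM in CFA. These 3 genes were singled out after their values were seen. Of the 8 lower in every group, 6 fall under the rule for named genes: Cilp2, Crip1, Fdps, Itm2a and the predicted genes Gm10076 and Gm47283. Gm47283 is annotated on chromosome Y, at chrY:90784738-90816464 of GRCm38, and this annotation was not used to tell the sex of the animals. It was also lower in the other kept cells, at 226 CPM in PBS and 64.3 CPM in CFA. Fdps, an enzyme of sterol synthesis, was at 168, 273 and 72.2 CPM in PBS and at 36.3, 109 and 18.4 CPM in CFA.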

How the data were processed

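Both libraries were analysed from the whole-number UMI counts per gene and barcode that the authors deposited; per the labels and the study's methods these came from Cell Ranger 7.0.1 on mm10, with 1 library per condition. The labels name a version 2 and the methods a version 3.1 capture kit. Depth and gates are given in the report. Barcodes with fewer than 500 genes or over 10% mitochondrial UMIs were left out, as in the methods, and those over 1% hemoglobin UMIs in addition. No doublet was removed; scores were computed with scanpy 1.11.5. UMIs were summed per library, scaled to CPM, and compared as quotients with exact conditional binomial 95% intervals; no test was run, since cells are not replicates. Members, lists and alternatives were chosen with earlier results of these data known. Groups came from Leiden clustering (1500 variable genes, 15 components, 15 neighbours, resolution 0.6) with leidenalg 0.10.2, without integration. Named genes were those of the fixed lists and markers, the 20 highest over other cells, the 15 highest and 15 lowest in CFA with at least 100 CPM in 1 library, and the 5 leading genes of each group; genes of ribosomal proteins, hemoglobins, immunoglobulins and mitochondria stayed unnamed. The ratio was tested on simulated data. Coordinates are from GENCODE on GRCm38, matched by symbol, and promoters from RefSeq. Some genes that the rule names are not reported here.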

Additional observations from a re-analysis of the deposited data

How the results depend on the processing

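The quotient of member shares stayed under 1 in its 8 alternatives, from 0.525 to 0.786, with an interval spanning 1 over barcodes without Ptprc and for at least 10 Col2a1 UMIs. Lower genes outnumbered higher ones except without group 4 and in the mean over shared groups, where 54.7% and 53.0% of calls were higher; the share was 23.4% without the hemoglobin limit and 46.7% with median-ratio scaling. The 218 genes lower in CFA became 405 without the hemoglobin limit, 140 after thinning to 2000 UMIs, 61 with 50 CPM added, 139 without group 4 and 126 in the mean over shared groups, and the 122 higher became 81 after thinning and 34 with 50 CPM added; thinning left 2208 genes measured. The superficial and lining median of -0.68 moved to -1.29 as a mean over cells, -1.99 after thinning, -0.0704 without group 4 and -0.0826 in the mean over shared groups. The interferon median of 1.16 moved to 0.51 after thinning, which left 2 genes measured, and 0.38 with 50 CPM added, a setting under which 2 of 21 were past 2-fold. Directions turned in the mean over shared groups for the rule genes (-0.24), Prg4 (1.13), Apoe (0.55), Clu (1.13), Matn3 (-1.12), Cdkn1c (-0.44), Dkk1 (-0.08), Lbp (0.21) and Tgfbr3 (0.11), without group 4 for Prg4 (1.03), Apoe (0.22) and Clu (0.97), and among members with at least 10 Col2a1 UMIs for the cell cycle list (0.53). In the mean over shared groups Prg4, at 3.01 and 18.4 CPM, and Matn3, at 16.2 and 2.09 CPM, lay near the 10 CPM added. At resolution 0.3 there were 3 groups. Thinned to 1000 instead of 2000 UMIs, members had medians of 662 and 635 instead of 1132 and 1090 genes in PBS and CFA. No paired analysis was possible because each condition is 1 library. Genes under 20 UMIs were not compared at this depth.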
